A study of Homo sapiens with 16 samples.

Results

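The genes described here are 10 human stress-defence genes, 8 antioxidant genes that the transcription factor NRF2 is known to induce and 2 metallothionein genes. They were chosen by name, and their members in the data are the peaks that overlapped the hg19 interval of each gene on its own strand. The peaks come from RNA immunoprecipitation followed by sequencing (RIP-seq) of Myc-tagged PABPC1, a protein that binds poly(A) tails in the cytoplasm, in H1299, a human cell line from a lung carcinoma. A peak is a genomic stretch that the authors' caller reported as enriched. In all 8 lists together the genes held 77 of 175749 peaks, which joined into 14 of 36802 regions where peaks overlapped on a strand.

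All cells carried a stably expressed Myc-PABPC1, wild type (WT) or K512R, in which lysine is replaced by arginine. They were treated with sodium arsenite (AS), which causes oxidative stress, at 500 µM or left without it. Whether they still made their own PABPC1 is not stated in the labels. There are 4 pairs of replicate lists, C, A, D and B, and in 6 of the 8 lists the title in the sample record and the list's own name disagree. C is titled WT-AS IP (immunoprecipitate), but its lists are named K512R. A is titled WT IP, and its lists are named WT. D is titled WT-AS input, the RNA before precipitation, but its lists are named K512R-AS. B is titled WT input, but its lists are named WT-AS. By the names, the 4 pairs are WT and K512R, each with and without AS, whereas by the titles all 4 are WT. Groups follow the record, and the sets of lists are the same under either reading. Which reading is right was not tested, so each comparison below is given under both. Lists titled input held 19953 to 21160 peaks, and lists titled IP held 21979 to 25111. By the record, C and A against D and B is IP against input, and going by the names it is cells without AS against cells with it. The remaining samples of the 16, all titled K512R, held none of the 8 lists, so they were not analysed here. By the list names, C and D are nevertheless K512R cells. Labels do not say whether replicates were separate cultures, so differences among replicates may be technical. The cell line could not be checked against marker genes, since the lists were not annotated with genes here.

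NRF2 is held in the cytoplasm and marked for degradation by KEAP1, whose reactive cysteines sense electrophiles and oxidants, arsenite among them. When KEAP1 is modified, NRF2 enters the nucleus and binds antioxidant response elements (AREs) near genes that make glutathione, reduce thioredoxin, repair peroxiredoxins and degrade haem. Metallothioneins are small cysteine-rich proteins that bind zinc, cadmium and other metals, and the factor MTF1 induces them through metal response elements (MREs). PABPC1 on the poly(A) tail of an mRNA contributes to its translation and stability.

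The cores of these elements were searched in the promoters, here the RefSeq windows of build GRCh38.p14 from 250 bases before to 50 after the start, which matched 7 of the 10 genes. HMOX1, SLC7A11 and PRDX1 were not matched. The ARE core was searched as TGACNNNGC and the MRE core as TGCACNC or TGCGCNC, on both strands, with overlapping matches counted. The stretches below come from GCLM, which had a peak in every list, and from TXNRD1, MT2A and MT1X, which had none. All 4 hold a core, as do GCLC, without a peak, and SRXN1, with peaks. Whether a core goes with a listed peak was not tested. Capitals mark the core, and GCLM and TXNRD1 carry the ARE core on the other strand.
GCLM ARE: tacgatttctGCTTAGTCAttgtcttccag
TXNRD1 ARE: gtggatttctGCTTTGTCAttctgactctg
MT2A ARE: gagccgcaagTGACTCAGCgcggggcgtgt
MT2A MRE: ggcggggctttTGCACTCgtcccggctctt
MT1X MRE: ggcggggcctcTGCGCCCggccctcttccc
In GRCh38.p14 they lie at chr1:93909445-93909474 (minus strand), chr12:104286920-104286949, chr16:56608470-56608499, chr16:56608519-56608548 and chr16:56682406-56682435 (plus strand). The GCLM core begins 34 bases before the start and the MT2A ARE core 104 bases before it. TXNRD1 had 3 ARE cores over 2 windows, MT2A and MT1X had 1 each, and GCLC, NQO1 and SRXN1 had 0. Elements farther from the start were not searched, so a count of 0 holds only for the window. MRE cores numbered 8 in MT2A and 4 in MT1X, 2 in GCLC, 1 each in TXNRD1, GCLM and SRXN1, and 0 in NQO1. Of 35116 promoter windows of the same length, 13.3% held the ARE core and 29.6% the MRE core, so a match is common, and none was tested as a binding site.

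Of the 10 genes, 5 had a peak in at least 1 list and 5 had none in any. Those with peaks were HMOX1, which cleaves haem, GCLM, the modifier subunit of glutamate-cysteine ligase, and NQO1, which reduces quinones, as well as SRXN1 and PRDX1. SRXN1 encodes sulfiredoxin, which restores overoxidised peroxiredoxins, and PRDX1 is one of the peroxiredoxins it repairs. No peak was listed in TXNRD1, the cytosolic thioredoxin reductase, GCLC, the catalytic subunit of glutamate-cysteine ligase, SLC7A11, the cystine importer xCT, or the metallothioneins MT2A and MT1X. None of the intervals held a peak on the opposite strand. An unlisted peak is no measure of RNA level, since the lists hold only what passed the authors' caller and selection.

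**Figure D1:**
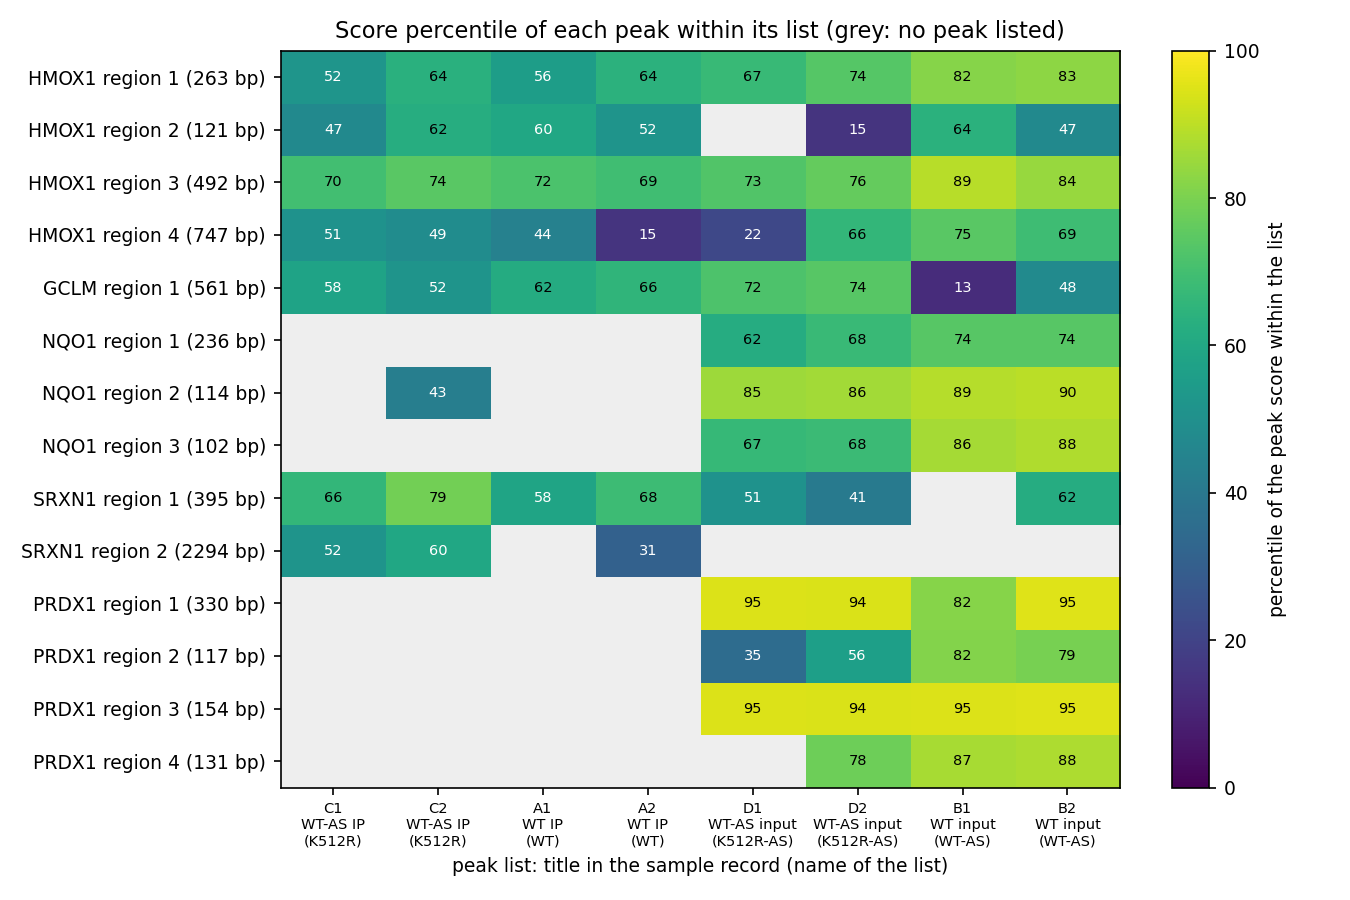
Percentile of the peak score within its list (0 to 100, 100 best) for the 14 regions (rows, 5′ to 3′ within a gene) in the 8 lists (columns, with title and list name), grey where no peak was listed. NQO1 and PRDX1 rows are empty in C and A apart from 1 cell of C2 and filled in D and B apart from 1 cell of D1, while HMOX1 and GCLM rows are filled on both sides.

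PRDX1 and NQO1 had peaks almost entirely in the lists of D and B. Of the 14 regions, 5 had a peak in none of the 4 lists of C and A and in all 4 of D and B, 3 in PRDX1 and 2 in NQO1. Over all 36802 regions, 3.01% showed this pattern. The reverse pattern was shown by 0 of the 14 regions and by 5.09% of all regions. A total of 4 regions (28.6%), 3 in HMOX1 and 1 in GCLM, had a peak in all 8 lists, near the 29.5% of all regions that did.

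PRDX1 lies on chromosome 1 at 45976707 to 45988562 (minus strand, hg19). Its peaks covered 0, 0, 0 and 0 bp in C1, C2, A1 and A2, against 601 and 732 bp in D1 and D2 and 732 bp in each of B1 and B2. The sides did not overlap, and D1 was the lowest of the lists that had peaks. Its 4 regions were 117 to 330 bp wide, where the median of all regions was 180 bp, and spread from 952 to 8383 bp past the 5′ end of an interval of 11856 bp. The region at 45981326 to 45981479 (154 bp) was absent from C and A and had a score of 3100 in each list of D and B. That value is shared by the strongest peaks, since between 8.17% and 11.0% of a list's peaks scored 3100 or more. The region nearest the 5′ end, at 45987281 to 45987610 (330 bp), was listed in none of C and A. It scored 3100 in D1, D2 and B2 and 1272.98 in B1. The region at 45984610 to 45984726 (117 bp) was the weakest, with scores of 72.46 and 238.7 in D1 and D2, against 1234.24 and 928.76 in B1 and B2. The region nearest the 3′ end, at 45980179 to 45980309 (131 bp), was missing in D1 and scored 1021.6 in D2, 2102.59 in B1 and 2132.27 in B2. It was the one PRDX1 region not listed in both replicates of D.

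NQO1 lies on chromosome 16 at 69743304 to 69760533 (minus strand). Its peaks covered 0 and 114 bp in C1 and C2 and 0 bp in each of A1 and A2, against 452 bp in each of D1, D2, B1 and B2. Only C2 on the first side had a peak, and the sides did not overlap. The region at the 5′ end of the gene, at 69760336 to 69760571 (236 bp), was listed in no list of C or A. Its scores were 311.83 and 465.33 in D1 and D2, against 681.8 and 605.3 in B1 and B2. The middle region, at 69748867 to 69748980 (114 bp), scored 101.57 in C2 and was not listed in C1, A1 or A2. In D1 and D2 it scored 1787.65 and 2229.03, against 2765.11 and 2639.39 in B1 and B2. Within C2 that peak stood at the percentile 42.7, and in the lists of D and B the same stretch stood between 85.2 and 89.5. The region at 69746931 to 69747032 (102 bp) was listed in the 4 lists of D and B alone, with scores of 416.75 and 484.72 in D and 2022.34 and 2147.21 in B. The scores are the authors' own per peak, and a percentile ranks a peak only within its list.

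**Figure D2:**
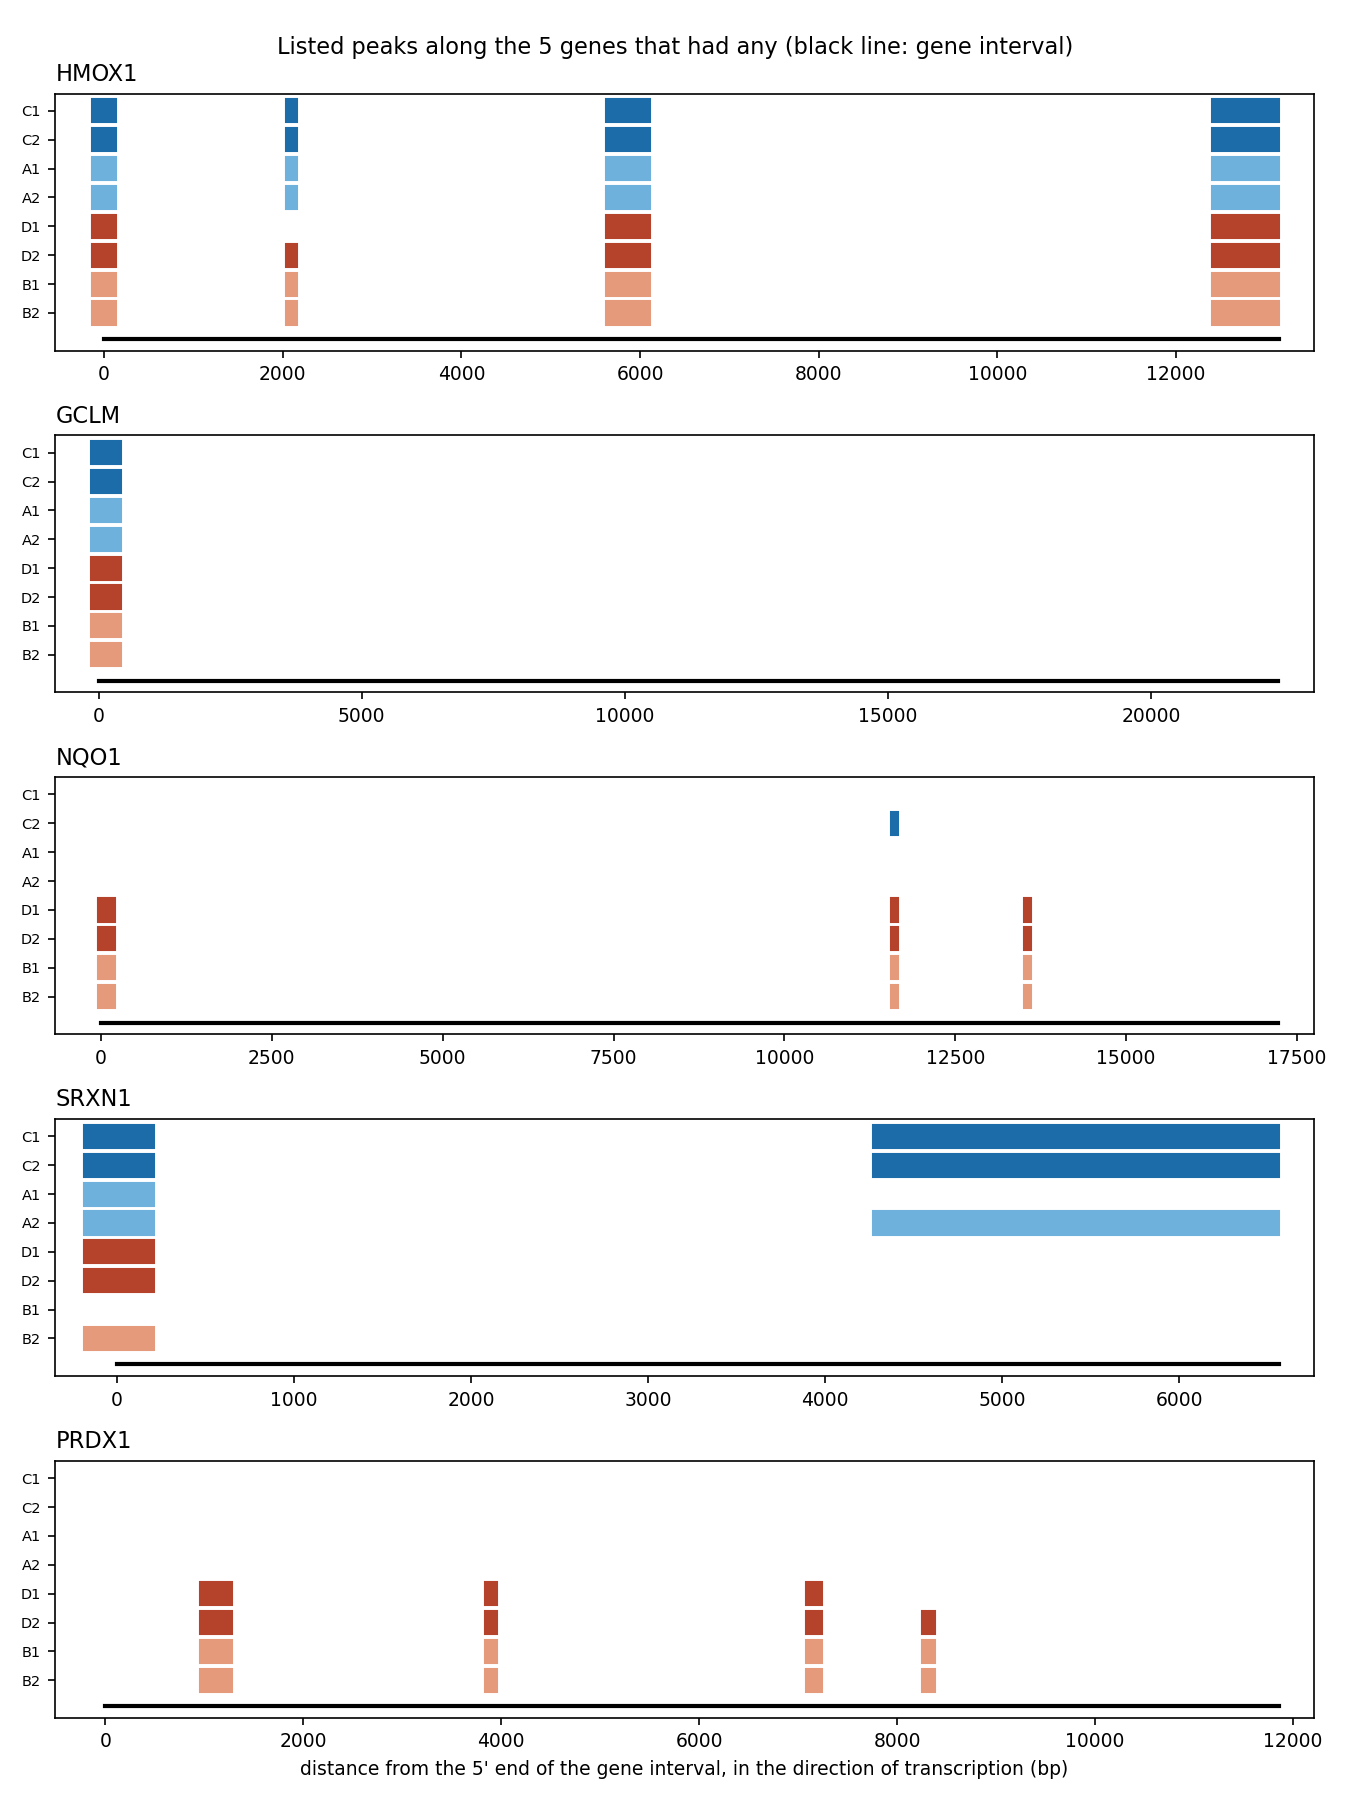
Peaks of each list (rows, blue for C and A, red for D and B) along the 5 genes that had any, by distance in bp from the 5′ end of the gene interval, which is the black line. Peaks of a region have the same ends in every list that holds it, except SRXN1 region 2, where the peak of A2 is 2 bp shorter. PRDX1 and NQO1 peaks lie in the red rows, apart from 1 NQO1 peak in C2, and the wide SRXN1 peak near the 3′ end in 3 of the blue ones.

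SRXN1, on chromosome 20 at 627268 to 633829 (minus strand), was the one gene with a region found in lists of C and A and in none of D and B. Its peaks covered 2689 bp in each of C1 and C2, 395 bp in A1 and 2687 bp in A2. In D1 and D2 they covered 395 bp each, against 0 bp in B1 and 395 bp in B2. The sides overlapped, since A1 was as low as D1, D2 and B2. The difference came from a wide region at the 3′ end, at 627268 to 629561 (2294 bp), the widest of the 14. It scored 151.06 and 241.13 in C1 and C2 and 59.77 in A2, and was not listed in A1 or in any list of D or B. The region over the 5′ end of the gene, at 633620 to 634014 (395 bp), was listed in 7 of the 8 lists and missing in B1. Just outside the interval, 1046 bp upstream of the 5′ end on the same strand, C2 alone had 1 further peak.

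HMOX1, on chromosome 22 at 35777060 to 35790207 (plus strand), had nearly the same peaks in every list, though with different scores. They covered 1623 bp in each of C1, C2, A1 and A2, 1502 bp in D1 and 1623 bp in each of D2, B1 and B2. Regions at 35776927 to 35777189 (263 bp), 35782678 to 35783169 (492 bp) and 35789461 to 35790207 (747 bp) were listed in all 8. The remaining one, at 35779099 to 35779219 (121 bp), was missing in D1, and in D2 its score was 28.23 and its percentile 15.1, the lowest of any list that held it. The 492 bp region was the best-scoring HMOX1 peak in each list. It scored 396.81 and 600.61 in C1 and C2 and 493.39 and 493.59 in A1 and A2, against 609.56 and 863.26 in D1 and D2 and 2870.81 and 1466.83 in B1 and B2. Its percentile lay between 69.2 and 74.5 in C and A, at 72.7 and 76.2 in D1 and D2 and at 89.3 and 84.5 in B1 and B2. The 263 bp region scored 154.22 to 361.37 in C and A and 423.52 to 1271.56 in D and B. Its percentiles were 52.2 to 64.1 and 67.3 to 82.9, without overlap of the sides. The 747 bp region scored 27.19 to 144.18 in C and A and 36.88 to 707.02 in D and B, and the sides overlapped. How many of all regions had scores without overlap was not analysed here. These ranks come from lists of different lengths and are no test of a change.

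GCLM, on chromosome 1 at 94352590 to 94375012 (minus strand), had 1 peak of 561 bp in every list, with the same ends, at 94374594 to 94375154 over the 5′ end of the gene. Its score was 208.81 and 156.96 in C1 and C2 and 265.89 and 395.21 in A1 and A2, against 576.22 and 719.42 in D1 and D2 and 24.39 and 129.46 in B1 and B2. GCLM thus ranked lowest in B1, at the percentile 12.6, and highest in D2, at 73.9. It was the one gene of the 5 whose covered length did not vary between lists.

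The choice by name did not use the ends of the peaks. Of the 14 regions, 13 (92.9%) had 1 pair of ends in all lists that held them, against 76% of the 30472 regions that at least 2 lists held. In 4 of the 5 genes the first region lay across the 5′ end of the interval, beginning 133 bp before it in HMOX1, 142 bp in GCLM, 38 bp in NQO1 and 185 bp in SRXN1. PRDX1 was the exception, its first region beginning 952 bp inside. The last region ended on the last base of the interval in HMOX1 and SRXN1. How often peaks lie over the 5′ end of other genes, and whether regions correspond to exons or UTRs, was not analysed here.

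**Figure D3:**
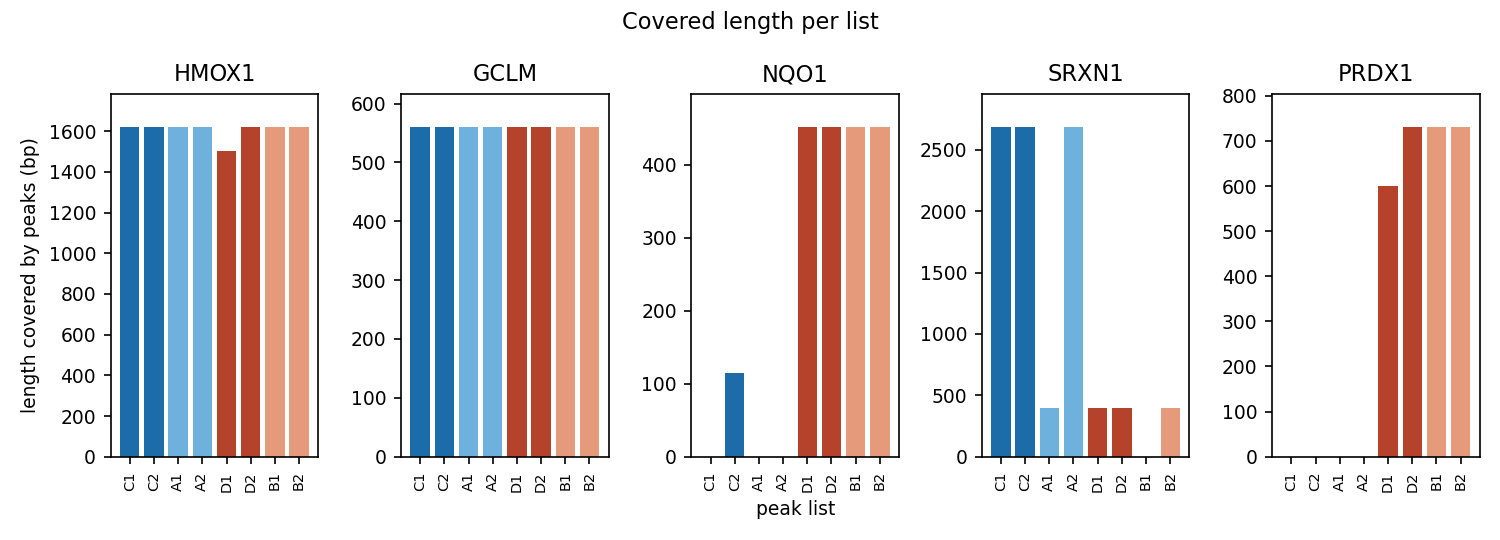
Length covered by peaks (bp, bars from 0, a separate scale per gene) in each of the 8 lists for the 5 genes that had peaks, blue for C and A and red for D and B. NQO1 has 452 bp in every list of D and B and at most 114 bp in C and A, PRDX1 at least 601 bp against 0, and HMOX1 and GCLM are level.

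Covered length was compared between the 4 lists of C and A and the 4 of D and B by an exact 2-sided permutation test. In PRDX1, NQO1, HMOX1 and GCLM each region had the same ends in all lists that held it. Covered length and its SD therefore varied in these genes only with which regions were listed. PRDX1 averaged 0 bp in C and A and 699 ± 65.5 bp in D and B (SD, n = 4 each), and the difference, C and A minus D and B, was -699 bp (exact p = 0.0286). NQO1 averaged 28.5 ± 57 bp in C and A and 452 bp in D and B, with no spread among the last (n = 4 each). The difference was -424 bp (exact p = 0.0286). This is the smallest p that 70 orders of 4 lists against 4 can give, and after Benjamini-Hochberg adjustment over 36793 tests, those of the regions outside these genes and of the 5 genes with peaks, it was 0.308 for both. None of these tests passed 0.05 after adjustment, at a lowest adjusted p of 0.308, whereas 9.28% of regions had an exact p under 0.05 before it. To pass, most of the tests would have had to reach the smallest p, so not passing says little about a single gene. Of all regions, 3.3% lay higher in every list of D and B than in any of C and A, and 5.98% the other way. SRXN1 averaged 2115 ± 1147 bp in C and A and 296 ± 198 bp in D and B (exact p = 0.114, adjusted p = 0.69, n = 4 each). HMOX1 averaged 1623 bp and 1593 ± 60.5 bp, and GCLM 561 bp on both sides (exact p = 1.0 for each, n = 4 each). The lists were taken as independent here, and an exact test over the 4 pairs in place of the lists cannot reach 0.05.

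Within the comparison of C against D, by the record IP against input with AS and by the names K512R cells without AS against those with it, 1 region was in both lists of C and neither of D. It was the wide SRXN1 region, and 16.0% of all regions with a peak in these lists had this pattern. In neither list of C and both of D were 5 regions, 2 of NQO1 and 3 of PRDX1, against 6.94% of all regions. For A against B, IP against input without AS by the record and WT cells without AS against those with it by the names, 0 regions were in A alone, against 11.4% of all. A total of 7, all 3 of NQO1 and all 4 of PRDX1, were in neither list of A and both of B, against 9.68% of all. These 2 comparisons share no list. With 2 lists a side there are 3 splits and an exact p cannot reach 0.05, so none was given. The 2 regions that separated only in A against B were the middle NQO1 region, listed in C2, and the 3′ PRDX1 region, missing in D1.

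No region of these genes was called along the other factor of the design. For C against A, AS against none in IP by the record and K512R against WT without AS by the names, 0 regions were in C alone and 0 in A alone, where 5.88% and 1.92% of all regions were. Of the 8 regions listed in C or A, 6 were in all 4 of their lists, against 53% of all regions. For D against B, AS against none in input by the record and K512R against WT with AS by the names, the counts were likewise 0 and 0, against 3.95% and 5.02% of all regions. Of the 13 regions listed in D or B, 10 were in all 4 of their lists, against 52.1% of all regions. Over all 8 lists, 0 regions were in C and D alone and 0 in A and B alone, where 0.0652% and 0.0489% of all regions were. Presence in 2 lists a side is coarse, and these counts do not show that the pairs were alike.

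The names of the peaks carry a number, and the numbers give a limit on what the lists leave out. In each list the numbers ran in order of position on every chromosome, with 0 peaks out of order, and 49.7% to 52.1% of the numbers up to the highest were listed. The count of numbers missing between the listed peaks on both sides of a gene is therefore the most unlisted peaks it can have had, on either strand. Around PRDX1, 4, 3, 2 and 2 numbers were missing in C1, C2, A1 and A2, against 3, 1, 3 and 1 in D1, D2, B1 and B2. In A1 and A2 the missing numbers were thus fewer than the 4 PRDX1 peaks of B1 and B2. Around NQO1, 1, 2, 4 and 3 numbers were missing in C1, C2, A1 and A2, against 4, 3, 3 and 2 in D1, D2, B1 and B2. Here C1 had room for 1 unlisted peak where the lists of D and B held 3, and A1 and A2 had room for 3 or more.

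For the wide SRXN1 region, D1 had 0 missing numbers around the gene and so no room for an unlisted peak, while D2, B1 and B2 had 3, 1 and 3 and A1 had 2. HMOX1 had exactly 1 missing number between its 492 bp and 747 bp regions in all 8 lists. NQO1 likewise had 1 between its first and middle region in D1, D2, B1 and B2. PRDX1 had 0 between any neighbouring listed peaks. The sources used here do not say what the missing numbers were.

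**Figure D4:**
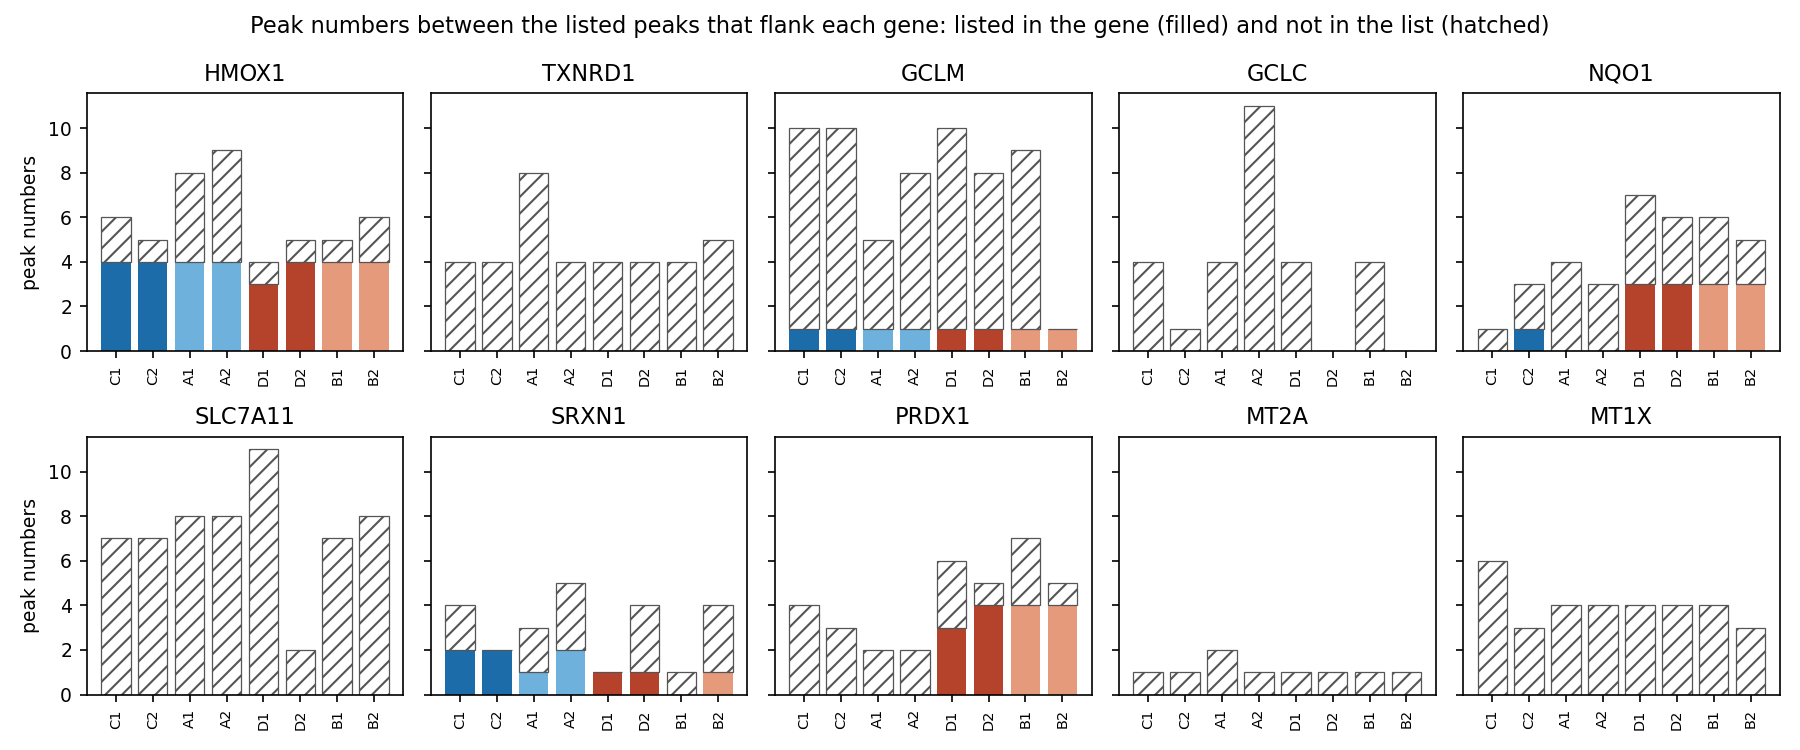
Peak numbers between the nearest listed peaks that flank each gene, in each of the 8 lists, as those listed in the gene (filled, blue for C and A, red for D and B) and those missing from the list (hatched, either strand, anywhere between the flanks). PRDX1 has 2 missing numbers in A1 and A2, where B1 and B2 list 4 peaks, and GCLC has none of either kind in D2 and B2.

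The same numbers were read for the genes without a listed peak. Around GCLC, on chromosome 6 at 53362139 to 53409927 (minus strand), 0 numbers were missing in D2 and B2, so these lists had no room for an unlisted GCLC peak. In the other 6 lists between 1 and 11 were missing, in gaps that reach far beyond the gene, the nearest listed peak on its strand lying 148396 bp away. MT2A, on chromosome 16 at 56642478 to 56643409 (plus strand), had 2 missing numbers around it in A1 and 1 in each of the other lists, and MT1X, at 56716382 to 56718108, had 3 to 6. TXNRD1, on chromosome 12 at 104609557 to 104744085 (plus strand), had 4 to 8 missing numbers around it. SLC7A11, on chromosome 4 at 139085248 to 139163503 (minus strand), had 2 to 11. In these 4 genes no list left the number of possible peaks at 0, so an unlisted peak cannot be told apart from none.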

How the data were processed

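RIP-seq peaks of Myc-tagged PABPC1 in H1299 cells were read from 8 lists that the authors deposited, each with a position, a strand and a score per peak. The sources used here do not give the unit of the deposited score, which was used to rank peaks within a list and to filter them. The submitters' processing notes name cutadapt 1.9.3, HISAT2 2.0.4 and hg19. Peak names begin with MACS. No version, control library or threshold of the caller is given in the sources used here. Read depth is unknown, and precision rests on the number of lists.

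Starts were counted from 1. Peaks that overlapped by at least 1 bp on a strand were joined into regions, and a peak belonged to a gene at 1 bp of overlap with its interval. The intervals were given with the gene list, and no hg19 annotation was used to check them. All 10 symbols matched RefSeq (GRCh38.p14) on the same chromosome. All 10 genes and all their regions are named. Other genes of the pathways were planned but not analysed here, for want of coordinates. The genes, comparisons and alternatives were chosen with earlier results of these data known. The numbering of peaks and the promoter cores were examined after the peaks had been seen. The call and test code was checked on simulated data in which some regions were set to the called pattern. That check gives no error rate for these lists. Python 3.11.15, numpy 2.4.6, pandas 2.3.3 and matplotlib 3.10.9 were used.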

Additional observations from a re-analysis of the deposited data

How the results depend on the processing

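Of 266 repeats of the counts and covered lengths under other settings, 249 kept their direction and their side of the threshold, or a count within 1.5 times. The 249 include all repeats for the 5 genes without peaks, which could only give 0. They also include all repeats with the replicate number as a block, counted as kept without a comparison. No gene passed the threshold as reported, so the 249 are no measure of robustness. Among the 249, NQO1 moved to -188 bp with only peaks wholly inside the interval, against -424 bp. With a score of at least 200, SRXN1 moved to 870 bp, against 1819 bp, and GCLM, which had no difference as reported, to 140 bp (adjusted p = 1.0, exact permutation test). The regions called in D and B but not C and A, by the presence rule and lists of each setting, numbered 4 to 6, against 5 as reported. With only peaks scoring at least 50, 2 regions were in C and not D, and 1 in B and not D. With a score of at least 200, 1 region was in A and not B, 1 in D and not B, and HMOX1 reversed, to a difference of -662 bp (C and A minus D and B, exact permutation test, adjusted p = 0.54). Under the looser presence rule (at least 1 of 2 lists, or 3 of 4, and none of the other side), 1 region was in A and not B, 1 in C and not A, and 1 in C and A but not D and B. Leaving out each replicate in turn gave 1 to 2 regions for C and not D, and 0 to 1 for A and not B, C and not A, D and not B, and C and A but not D and B. It gave 0 to 2 for B and not D, and for HMOX1 a difference of 0 to 40.3 bp, which is 0 without D1. SRXN1 did not overlap between the sides without A1 (exact p = 0.0286, adjusted p = 0.267, a permutation of 3 lists against 4).

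With the replicate number as a block (exact sign flips of 4 differences), the p was 0.125 for NQO1, PRDX1 and SRXN1, the smallest this test can give, at the same differences of -424, -699 and 1819 bp. The replicate numbers gave little sign of pairing the lists. Over regions, deviations of lists with the same number correlated by 0.00645 to 0.0203 in covered length and by 0.0111 to 0.0305 in presence.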
